A study of Rattus norvegicus with 14 samples.

Results

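Retinoic acid synthesis and retinoid transport were followed in fetal rat gonads through 4 genes, the aldehyde dehydrogenases Aldh1a1 and Aldh1a2, the intracellular carrier Crabp2 and the plasma retinol carrier Rbp4. They were taken as every probe set whose platform symbol was 1 of these names, which gave 4 probe sets, 1 per gene, of the 15866 tested. The series held 14 single-colour Affymetrix rat expression arrays in 7 groups of 2. The groups were testis of embryonic day 13 (E13) kept in organ culture for 3 days, fresh testis at E13, E14 and E16, and fresh ovary at E13, E14 and E16. Each array received RNA from a pool of 20 to 40 gonads, and the 2 pools of a group were independent, so the spread given here is between pools and not between animals. For culture, testes were held on floating filters over a CMRL medium that contained insulin, transferrin, serum albumin and antibiotics. No other treatment or genotype is named for any group, and the strain is not given in the sources used here.

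Retinol travels in blood bound to Rbp4, is taken up by cells and is oxidised first to retinaldehyde and then, irreversibly, to retinoic acid by the Aldh1a enzymes. Crabp2 carries retinoic acid to the nuclear receptors, and enzymes of the Cyp26 family degrade it. In the fetal mouse ovary retinoic acid is linked with the entry of germ cells into meiosis, while in the fetal mouse testis Cyp26b1 keeps its level low.

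The upstream sequences of the 4 genes are shown because each gene differed between testis and ovary in at least 1 comparison on these arrays. Each is the 250 bases before the annotated start, 5′ to 3′ on the strand of the gene, from RefSeq on build GRCr8. The windows are chr1:227537370-227537619 (plus strand) for Aldh1a1, chr8:80758391-80758640 (plus) for Aldh1a2, chr2:175714612-175714861 (plus) for Crabp2 and chr1:245313552-245313801 (minus) for Rbp4. Capitals mark matches, on either strand, to 6 short motifs. The octamer is ATGCAAAT and the CCAAT box is the letters of its name. The TATA box was searched as TATAAA. The GC box was searched as GGGCGG. The nuclear receptor half-site was searched in one form as AGGTCA. Its other form was GGGTCA.
Aldh1a1: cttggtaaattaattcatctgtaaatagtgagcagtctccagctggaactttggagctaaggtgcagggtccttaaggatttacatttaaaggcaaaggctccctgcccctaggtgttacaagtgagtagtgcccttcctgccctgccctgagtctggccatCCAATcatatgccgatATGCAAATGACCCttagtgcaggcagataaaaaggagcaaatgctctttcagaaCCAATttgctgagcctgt
Aldh1a2: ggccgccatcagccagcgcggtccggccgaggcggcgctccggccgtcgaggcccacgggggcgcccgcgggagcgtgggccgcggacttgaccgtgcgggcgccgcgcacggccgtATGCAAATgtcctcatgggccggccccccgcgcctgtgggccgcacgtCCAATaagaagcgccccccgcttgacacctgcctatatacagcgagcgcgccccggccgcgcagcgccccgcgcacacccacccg
Crabp2: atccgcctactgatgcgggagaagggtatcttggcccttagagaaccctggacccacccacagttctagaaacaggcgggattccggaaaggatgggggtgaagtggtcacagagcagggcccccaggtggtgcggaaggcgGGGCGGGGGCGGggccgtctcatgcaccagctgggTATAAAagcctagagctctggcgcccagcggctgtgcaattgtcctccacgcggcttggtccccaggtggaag
Rbp4: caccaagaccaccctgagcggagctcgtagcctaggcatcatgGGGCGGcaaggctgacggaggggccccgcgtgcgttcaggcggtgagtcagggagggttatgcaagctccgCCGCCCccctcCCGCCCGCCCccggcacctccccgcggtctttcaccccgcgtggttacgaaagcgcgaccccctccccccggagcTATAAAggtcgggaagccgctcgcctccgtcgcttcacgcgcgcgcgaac
The motifs were searched in windows that also held the 50 bases after the start, 300 bases in all. Both synthesis enzymes carried the octamer, at -72 in Aldh1a1 and at -133 in Aldh1a2, counted from the start. It occurred in 1.78% of the 33469 promoter windows of the table. CCAAT stood at -88 and -18 in Aldh1a1 and at -85 in Aldh1a2, and in 37.5% of all windows. TATAAA stood at -73 in Crabp2 and at -50 in Rbp4, and in 14.2% of all windows. GGGCGG matched 4 times in Rbp4, where the matches at -125 and -121 overlap, 2 times in Crabp2 and 1 time in Aldh1a2 (4 bases past the start), and in 33.1% of all windows. GGGTCA, found in 13.8% of all windows, matched only the Aldh1a1 window among the 4, on the opposite strand at -65, where its first base overlaps the octamer. AGGTCA, found in 16.2% of all windows, matched none of the 4. For Aldh1a1 the annotated start of this window was not the edge of the gene in the RefSeq gene table. These matches describe the letters in the windows, and binding was not measured.

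**Figure D1:**
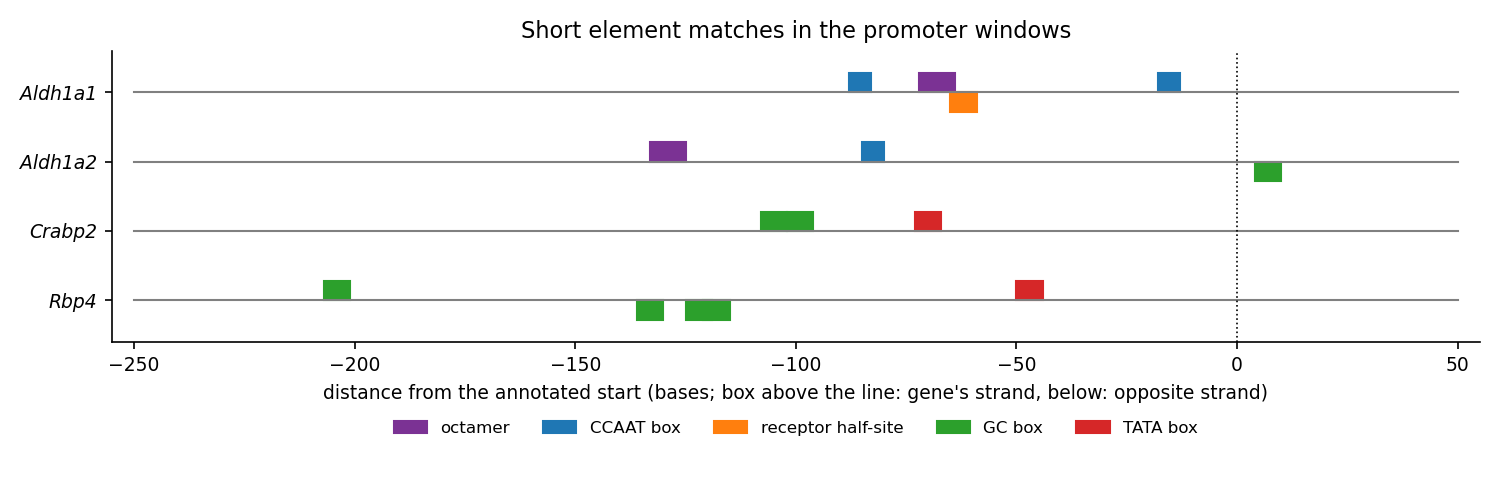
Motif matches in the 300-base promoter windows of the 4 genes, by distance from the annotated start in bases, with boxes above the line on the strand of the gene and boxes below it on the opposite strand. Only the rows of the 2 Aldh1a genes hold octamer and CCAAT boxes, and only the rows of Crabp2 and Rbp4 hold a TATA box.

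Array medians lay between 59.6 and 69.2 intensity units. Sry, the testis-determining gene, read 162.8 and 184.9 in fresh E13 testis and 45.9 and 37.1 in E14 testis, against 13.1 to 28.7 in ovary. In E16 testis (28.2 and 18.5) and cultured testis (13.4 and 20.2) it lay within the ovary range. Amh, the Sertoli cell hormone, read 476.7 to 1093 in E14, E16 and cultured testis, against 9.6 to 38.5 in ovary. In E13 testis Amh read 79.5 and 63.9, and its sex difference at E13 did not pass (limma adjusted p = 0.516). Xist, the RNA of the inactive X chromosome, went against the label in 4 arrays: it read 151.1, 36.2 and 269.2 in replicate 1 of cultured E13, fresh E13 and fresh E14 testis, against 1.5 to 4.8 in the other testis arrays, and 12.8 in replicate 2 of E16 ovary, against 151.7 to 672.3 in the other ovary arrays. Each result of Aldh1a1, Aldh1a2, Crabp2 or Rbp4 that passed is therefore also given without these 4 arrays; the other genes named are given over all 14. The ratio of 3′ to 5′ signal of actin, a sign of RNA integrity, reached 2.97 in cultured replicate 2 and 3.34 in E16 ovary replicate 1, against 1.47 to 2.13 elsewhere. In pooled tissue, fewer cells of a type and less RNA per cell cannot be told apart.

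Among the synthesis enzymes, Aldh1a1 was the gene that separated testis from ovary most and that also climbed with age and in culture. Its intensity in fresh testis was 89.5 and 77.3 at E13, 319.9 and 455.7 at E14, and 550.2 and 824.0 at E16. In ovary it was 60.7 and 44.8 at E13, 87.4 and 50.8 at E14, and 77.7 and 56.1 at E16. At each of the 3 ages both testis arrays lay above both ovary arrays, and the testis arrays of successive ages did not overlap, whereas the ovary arrays of all 3 ages did. Here and below, such separations of arrays only describe the values. How many of all probe sets show them was not counted. On the log2(intensity + 16) scale the testis minus ovary difference in Aldh1a1 was 0.54 at E13 (95% interval -0.20 to 1.28, limma adjusted p = 0.713). At E13 0 of the 4 genes passed an adjusted p of 0.05 in limma, where 0.0126% of all probe sets did. Aldh1a2 alone of the 4 had an unadjusted limma p under 0.05, as did 1236 of the 15866 probe sets. At E14 the Aldh1a1 difference was 2.26 (SE 0.34, limma adjusted p = 0.032), 5.61 times the ovary mean, and Aldh1a1 was the only 1 of the 4 that passed, against 0.139% of all probe sets. At E16 it was 3.07 (SE 0.34, limma adjusted p = 0.00161), with a mean of 687.1 ± 194 in testis against 66.9 ± 15.3 in ovary (SD, n = 2 each).

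At E16, 3 of the 4 genes passed (Aldh1a1, Crabp2 and Rbp4), against 1.74% of all probe sets. For Aldh1a1 the E16 call held with each single array left out (2.78 to 3.35), and the difference was 2.88 with limma adjusted p = 0.0612 without the 4 arrays at odds in Xist. The E14 call was lost with any 1 fresh array left out (1.94 to 2.58, limma adjusted p up to 0.381) and without the 4 arrays (2.50, limma adjusted p = 0.158). At E14 and at E16, 1 testis and 1 ovary array shared a chip batch, taken from the date in the array label. The E16 ovary array among them, replicate 2, is 1 of the 4 at odds in Xist. Between the arrays of a shared batch the testis minus ovary difference of Aldh1a1 was 2.82 at E14 and 3.54 at E16. Averaged over the 3 ages it was 1.96 (limma adjusted p = 0.000687), where 2 of the 4 genes, Aldh1a1 and Aldh1a2, passed, against 2.31% of all probe sets, and it was 1.94 without the 4 arrays (limma adjusted p = 0.0323). The growth of the sex difference in Aldh1a1 between E13 and E16 was 2.53 (95% interval 1.48 to 3.58) and did not pass (limma adjusted p = 0.0969), but it passed with chip period as a block (2.86, limma adjusted p = 0.00556), with chip batch as a random block (2.78, limma adjusted p = 0.0266) and with dim probe sets left out (limma adjusted p = 0.0499). Chip periods are the 3 spans into which the label dates fall.

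**Figure D2:**
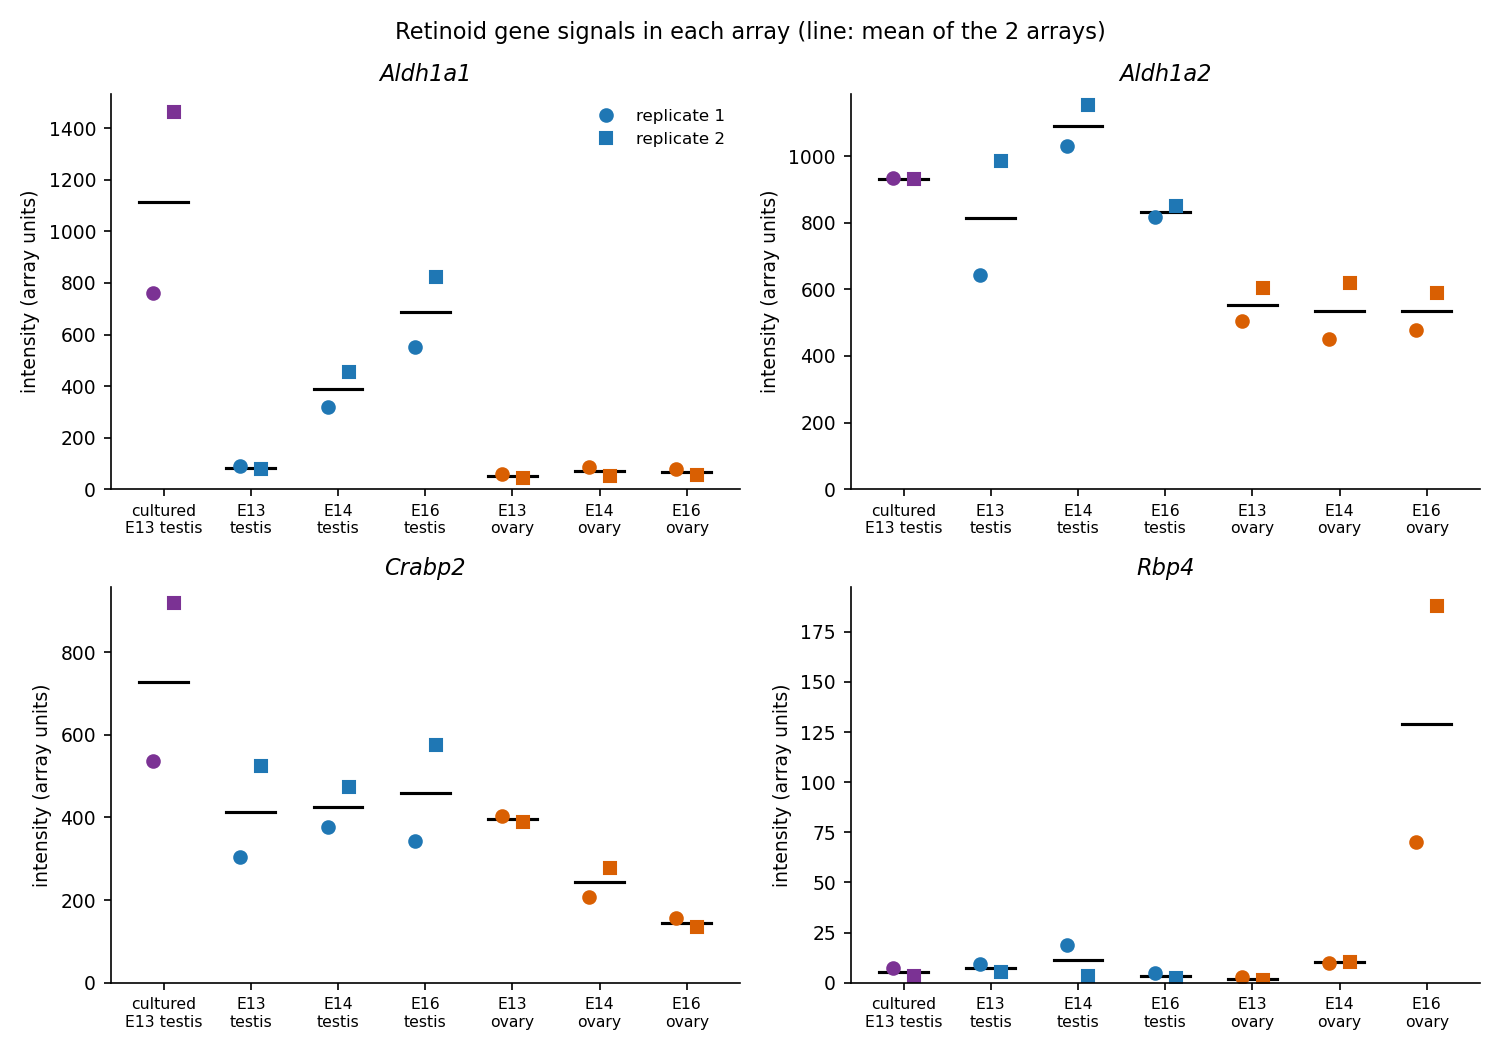
Intensity of Aldh1a1, Aldh1a2, Crabp2 and Rbp4 in each of the 14 arrays, with a point per array, a line at the mean of the 2 arrays and a panel of its own scale for each gene. Aldh1a1 is high in cultured, E14 and E16 testis, Aldh1a2 is at least 643.1 in every testis array and at most 618.4 in every ovary array, Crabp2 is lowest in E16 ovary, and Rbp4 exceeds 18.9 only in E16 ovary.

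Within fresh testis, Aldh1a1 was 2.80 higher at E16 than at E13 (log2 scale, SE 0.34, limma adjusted p = 0.00358), or 8.24 times the E13 mean. It was the only 1 of the 4 genes that passed there, against 0.945% of all probe sets. Without E16 testis replicate 2 the difference was 2.51 (limma adjusted p = 0.0563), and without the 4 arrays at odds in Xist it was 2.89 (limma adjusted p = 0.0821). The step at E14 over E13 measured 2.004 (95% interval 1.26 to 2.75, limma adjusted p = 0.0701) and the step at E16 over E14 measured 0.79 (95% interval 0.05 to 1.54, limma adjusted p = 0.922). In each of these steps 0 of the 4 genes passed, against 0.0693% and 0.120% of all probe sets. Aldh1a1 alone of the 4 was under an unadjusted limma p of 0.05 in each, as were 1141 and 818 of the 15866 probe sets. The E14 step of Aldh1a1 passed with chip period as a block (2.53, limma adjusted p = 0.0129), with chip batch as a random block (2.17, limma adjusted p = 0.0325) and with dim probe sets left out (limma adjusted p = 0.0346). In ovary the E16 minus E13 difference of Aldh1a1 was 0.27 (95% interval -0.47 to 1.01, limma adjusted p = 0.89).

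Cultured E13 testis had the highest group mean of Aldh1a1 in the series, with arrays at 762.7 and 1463.9, against 89.5 and 77.3 in fresh E13 testis. The cultured arrays lay far above the fresh E13 arrays, and their range met that of fresh E16 testis. The cultured minus fresh E13 difference was 3.44 (log2 scale, SE 0.34, limma adjusted p = 8e-04), 13.3 times the fresh mean, and Aldh1a1 was the only 1 of the 4 genes that passed, against 1.39% of all probe sets. Without the 4 arrays at odds in Xist it was 3.99 (limma adjusted p = 0.07), where each side keeps 1 array. Cultured replicate 2, the brighter, is also the one with the high actin ratio and the low red blood cell signal, and without the 2 arrays of high actin ratio the difference was 2.97 (limma adjusted p = 0.0168). Cultured E13 minus fresh E16 testis was 0.64 for Aldh1a1 (95% interval -0.10 to 1.38, limma adjusted p = 0.816), and cultured E13 minus fresh E14 testis was 1.43 (95% interval 0.69 to 2.17, limma adjusted p = 0.166, and 0.0166 with chip period as a block). In these 2 comparisons 0 of the 4 genes passed, against 0.0945% and 0.277% of all probe sets. Of the 4, only Aldh1a1 against E14 had an unadjusted limma p under 0.05, where 1059 (against E16) and 1328 (against E14) of the 15866 probe sets did. The comparisons with fresh testis share the cultured arrays, and those with fresh E13 testis share the E13 arrays.

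Markers of testis cell types were set beside Aldh1a1. Of 11 measured Sertoli cell markers, 2 were higher in testis at E14 (Amh and Aard), 4 were higher and 1 lower at E16, and 5 were higher in cultured than in fresh E13 testis. Their summed intensity was 3549 to 4151 in cultured testis, 1153 to 1340, 2513 to 2658 and 3683 to 3850 in fresh testis at E13, E14 and E16, and 1067 to 1713 over the ovary arrays. Most of the rise in these sums is Amh and Aard, with means of 71.7 and 257.95 in E13 testis and 953.2 and 1514.15 in E16 testis. Of 7 fetal Leydig cell markers, 7 were higher in testis at E16, 5 were higher in cultured than in fresh E13 testis, and 0 passed at E14. At E14 the Leydig sums were 217.7 to 240.2 in testis and 176.5 to 189.5 in ovary, where Aldh1a1 passed, against 4270 to 8367 in E16 testis and 3539 to 4670 in cultured testis. In cultured testis, the adrenal steroid enzymes Cyp21a1 and Cyp11b1 were also higher than in fresh E13 testis (2.39 and 2.77, limma adjusted p = 0.00231 and 8e-04), and the summed red blood cell signal was 1009.5 in cultured replicate 2 and 9672 in replicate 1, against 6904 to 10772 in fresh E13 testis. Of 10 markers of interstitial stroma and peritubular cells, 2 were higher in E16 than in E13 testis and in cultured than in fresh E13 testis (Dcn and Mgp), Tcf21 was higher and Postn lower in testis at E14, and 3 were higher and 1 lower in testis at E16. Their sums were 7392 to 8241 in cultured testis, 4945 to 5210 in E13 testis and 7429 to 8571 in E16 testis. Mgp also rose in ovary between E13 and E16 (4.52, limma adjusted p = 0.00187), where Aldh1a1 did not pass. The part of these cell types in the Aldh1a1 values was not tested.

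Aldh1a2, the other synthesis enzyme, had a broader and flatter pattern, with a modest excess in testis at every age. Its intensity in fresh testis was 643.1 and 985.8 at E13, 1030.9 and 1152.7 at E14, and 816.6 and 849.4 at E16. In ovary it was 504.1 and 603.8 at E13, 449.7 and 618.4 at E14, and 479.1 and 588.0 at E16. All 6 fresh testis arrays lay above all 6 ovary arrays, with means of 913.1 ± 180 in testis and 540.5 ± 71.7 in ovary (SD, n = 6 each, over 3 ages). The difference averaged over ages was 0.73 (log2 scale, SE 0.13, limma adjusted p = 0.018). Taken age by age, it was 0.52 at E13 (95% interval 0.01 to 1.02, limma adjusted p = 0.632), 1.03 at E14 (0.52 to 1.53, limma adjusted p = 0.161) and 0.63 at E16 (0.13 to 1.14, limma adjusted p = 0.257), so no single age passed.

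The mean sex difference of Aldh1a2 did not pass with chip period as a block (0.53, limma adjusted p = 0.0709), without the 4 arrays at odds in Xist (0.90, limma adjusted p = 0.0757) or without the 2 arrays of high actin ratio (0.68, limma adjusted p = 0.0703). It was also lost when E14 testis replicate 2, E16 testis replicate 2, E13 ovary replicate 1 or E16 ovary replicate 1 was left out (0.62 to 0.83 over all 14 single arrays). The change of its sex difference between E13 and E16 was 0.12 (95% interval -0.60 to 0.83, limma adjusted p = 0.982). In testis the E16 minus E13 difference was 0.06 (95% interval -0.44 to 0.57), and in ovary it was -0.05 (-0.56 to 0.45). Cultured E13 testis read 933.1 and 931.1, between the 2 fresh E13 arrays, and the cultured minus fresh difference was 0.22 (95% interval -0.28 to 0.73, limma adjusted p = 0.784). Aldh1a1 passed in both the age comparison in testis and the culture comparison, where the upper bounds for Aldh1a2 were 0.57 and 0.73. The difference between the 2 enzymes was not tested.

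**Figure D3:**
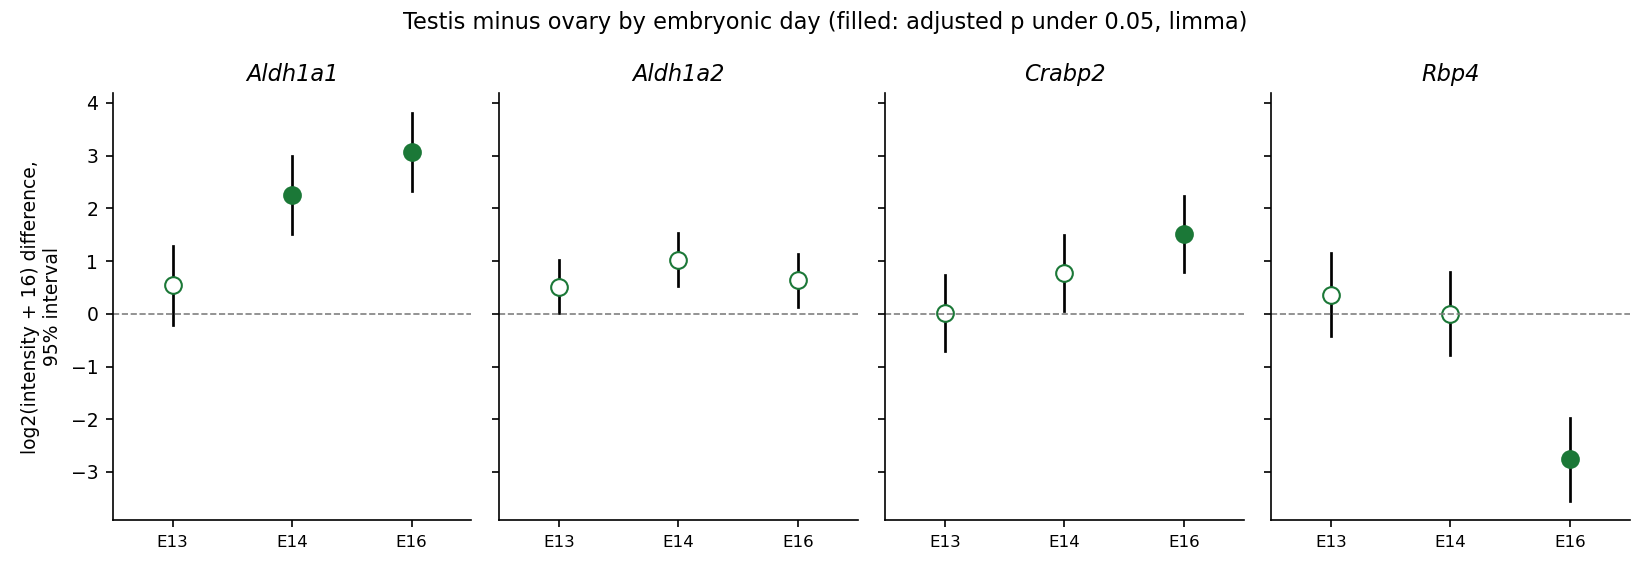
Testis minus ovary difference of each gene at E13, E14 and E16 on the log2(intensity + 16) scale, with 95% intervals from limma and filled points for an adjusted p under 0.05. Aldh1a1 and Crabp2 read higher in testis at the later ages, Aldh1a2 sits between 0.52 and 1.03 at all 3 ages, and Rbp4 is at -2.76 at E16.

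Crabp2, which delivers retinoic acid to its receptors, was close between the sexes at E13 and lower in ovary at E16. Its intensity in fresh testis was 304.4 and 523.8 at E13, 377.9 and 474.6 at E14, and 343.8 and 574.6 at E16. In ovary it was 402.4 and 389.3 at E13, 208.5 and 278.8 at E14, and 156.6 and 134.0 at E16. The ovary arrays of successive ages did not overlap, each age lying below the one before, while the testis arrays of all 3 ages overlapped. Neither ovary step passed: E14 minus E13 and E16 minus E14 were each -0.68 (log2 scale, 95% interval -1.40 to 0.04 in each). At E16 testis exceeded ovary by 1.52 (log2 scale, SE 0.33, limma adjusted p = 0.0446), or 3.16 times the ovary mean. The difference was 0.01 at E13 (95% interval -0.71 to 0.73) and 0.77 at E14 (0.05 to 1.49, limma adjusted p = 0.605).

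The E16 call for Crabp2 was near the threshold. It was lost when any 1 array of E14 testis, E16 testis, E13 ovary or E16 ovary was left out (1.16 to 1.88), and without the 4 arrays at odds in Xist the difference was 1.42 (limma adjusted p = 0.173). Within chip batch 1, with 1 array of each sex, it was 1.98, and the ovary array there, replicate 2, is 1 of those 4. The E16 minus E13 difference of Crabp2 in ovary was -1.36 (95% interval -2.08 to -0.64) and did not pass (limma adjusted p = 0.096), though it did with chip period as a block (-1.51, limma adjusted p = 0.0216), and in testis it was 0.15 (95% interval -0.57 to 0.87). Cultured E13 testis read 535.6 and 918.1, both above the fresh E13 arrays, but the difference of 0.79 did not pass (95% interval 0.07 to 1.51, limma adjusted p = 0.358).

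Rbp4, which carries retinol in plasma and is made mostly by the liver in adults, stood apart because it rose above low values in E16 ovary alone. It read 70.1 and 188.0 there, where the array medians were 63.9 and 59.6, against 1.4 to 18.9 in the other 12 arrays. Its values were 7.4 and 3.4 in cultured testis, 9.2 and 5.3, 18.9 and 3.6, and 4.8 and 2.4 in fresh testis at E13, E14 and E16, and 2.7 and 1.4, and 9.7 and 10.6 in ovary at E13 and E14. These 12 values lie below the lower quartile of every array (20.6 to 26.5), so without detection calls they cannot be told from background, and no fold on the linear scale is given. On the log2(intensity + 16) scale, which limits such folds, testis minus ovary at E16 was -2.76 (SE 0.36, limma adjusted p = 0.00355), and it passed with every single array left out (-3.38 to -2.14). Within ovary, E16 exceeded E13 by 2.88 (SE 0.36, limma adjusted p = 0.00503), the only 1 of the 4 genes that passed, against 0.889% of all probe sets.

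The size of the Rbp4 result depended on the 2 E16 ovary arrays, which differed from each other more for Rbp4 than for the other 3 genes. Replicate 2, the brighter, is the one with low Xist, and replicate 1 the one with the high actin ratio. Without the 4 arrays at odds in Xist, testis minus ovary at E16 was -2.14 (limma adjusted p = 0.0328) and ovary E16 minus E13 was 2.25 (limma adjusted p = 0.145), both with replicate 1 as the E16 ovary array. Without E13 ovary replicate 1 or 2, the ovary difference did not pass either (limma adjusted p = 0.0654 and 0.0719). Ovary E16 minus E14 was 2.34 (95% interval 1.56 to 3.13) and did not pass (limma adjusted p = 0.177), but it passed without E16 ovary replicate 1 (2.96, limma adjusted p = 0.0292). From E13 to E14 in ovary, and from E14 to E16, 0 of the 4 genes passed, as did 0% of all probe sets in limma. Of the 15866 probe sets, 679 and 975 had an unadjusted limma p under 0.05, shares near that threshold itself. Among the 4 genes only Rbp4 did, in the later step. The sex difference of Rbp4 at E16 minus that at E13 was -3.12 (SE 0.51, limma adjusted p = 0.0496), where it was the only 1 of the 4 that passed, against 0.145% of all probe sets. That call was lost in 11 of the 14 fits with 1 array left out (-3.74 to -2.50) and held without E14 testis replicate 1, E14 testis replicate 2 or E16 ovary replicate 1.

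Markers of other tissues were set beside Rbp4. Of 12 hepatocyte markers, among them albumin and Ttr, the plasma partner of Rbp4, 0 passed between the sexes at E16 and 0 between E16 and E13 ovary. Their summed intensity was 306.6 to 473.5 in E16 testis and 276.5 to 347.5 in E16 ovary. Ttr itself read 45.1 and 21.9 in E16 testis and 60.7 and 35.5 in E16 ovary (log2 difference -0.39, limma adjusted p = 0.714). Of 10 mesonephros and kidney tubule markers 0 passed at E16, with sums of 368.2 to 487.7 in testis and 478.5 to 558.8 in ovary. Of 9 markers of surface and coelomic epithelium, Krt19 was lower in testis at E16 (-2.89, limma adjusted p = 0.00299) and Krt18 was higher, and the sums were 1450 to 1520 in E16 testis and 2532 to 3109 in E16 ovary. Most of that difference in sums is Krt19 alone, at 146.6 and 185.5 in E16 testis and 1064.7 and 1644.2 in E16 ovary. Of 4 germ cell markers, Sycp3 and Tex101 were higher in E16 than in E13 ovary, Sycp3 was also higher in E16 than in E13 testis, and 0 passed between the sexes at E16. Of 5 pre-granulosa cell markers, Fst and Lgr5 were lower in testis at E16, with sums of 310.4 to 380.9 in E16 testis and 885 to 1324 in E16 ovary, and 0 passed between E16 and E13 ovary. The stromal gene Postn was also lower in testis at E16 (-2.37, limma adjusted p = 0.00142). The part of these cells in the Rbp4 values was not tested.

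**Figure D4:**
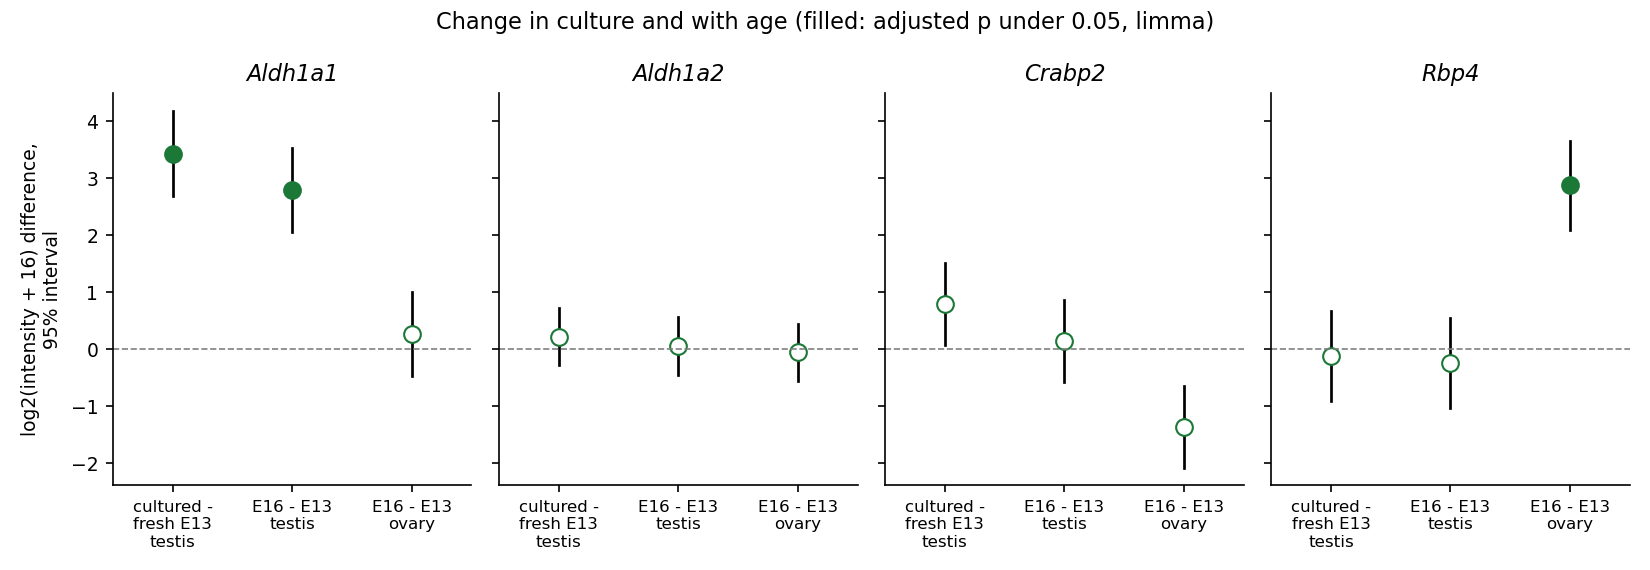
Cultured minus fresh E13 testis, and E16 minus E13 in testis and in ovary, for each gene on the log2(intensity + 16) scale, with 95% intervals from limma and filled points for an adjusted p under 0.05. Aldh1a1 passes in culture (3.44) and with age in testis (2.80), Rbp4 passes with age in ovary (2.88), and no comparison of Aldh1a2 or Crabp2 passes.

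The order of the 7 groups differed between the genes. For Aldh1a1 the means ran from cultured testis (1113 ± 496) through fresh E16 (687.1 ± 194), E14 (387.8 ± 96.0) and E13 testis (83.4 ± 8.63) to the ovaries at E14, E16 and E13 (69.1 ± 25.9, 66.9 ± 15.3 and 52.8 ± 11.2, SD, n = 2 each). Its first pair of neighbours, cultured and E16 testis, and, at the low end, E13 testis and the 3 ovary groups overlapped as neighbours. For Aldh1a2, E14 testis (1092 ± 86.1) stood above cultured testis (932.1 ± 1.41) and E16 testis (833.0 ± 23.2), E16 overlapped E13 testis (814.5 ± 242), and the ovary groups (533.6 to 554.0) overlapped one another. For Crabp2, cultured testis (726.9 ± 270), the fresh testis groups and E13 ovary overlapped as neighbours, and E14 ovary (243.7 ± 49.7) and E16 ovary (145.3 ± 15.98) lay below without overlap. For Rbp4, E16 ovary (129.1 ± 83.4) had no overlap with any other group, and the order of the rest is among background values.

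The genes whose log2 values followed each member most closely over the 14 arrays were named from 840 candidates with 1 symbol, a group mean of at least 100 and a span between group means of at least 1 on the log2 scale. For Aldh1a1 these were Cdh11, a cadherin (Pearson r = 0.974), Mybphl (r = 0.967), Gstt3, a glutathione transferase (r = 0.965), Tsx (r = 0.961) and Gfra2, the neurturin receptor (r = 0.950). For Aldh1a2 they were Arhgap18 (r = 0.919), Rgs2, a regulator of G protein signalling (r = 0.899), Idi1, of isoprenoid synthesis (r = 0.890), Abracl (r = 0.884) and Cst8, a cystatin (r = 0.877). For Crabp2 the closest was Vim, the intermediate filament vimentin (r = 0.960), with Mgst2, Rnd3 and A2m at r = 0.913, 0.905 and 0.887, and the gene listed as 6330403K07Rikl at r = 0.925. For Rbp4 they were Slc4a4, a bicarbonate transporter (r = 0.924), Phyhd1 (r = 0.905), Slco1a5, an organic anion transporter (r = 0.893), Tkfc (r = 0.845) and Tcea3 (r = 0.823). The 14 arrays share groups, labelling and scaling, so these coefficients describe likeness and carry no test, and for Rbp4 they rest on the 2 E16 ovary arrays.

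Other genes of the retinoid pathway were set beside the 4. Of 62 listed genes of synthesis, uptake and storage, receptors, degradation and response, 40 were measured. In testis minus ovary at E16, 1 of the 40 was higher and 0 were lower, where 1.74% of all probe sets passed, with a median of 0.03 for the 40 and 0.05 for all probe sets. The 1 that passed was Nr2f2, an orphan nuclear receptor that responds to retinoic acid, at 845.7 and 653.9 in E16 testis and 389.7 and 229.6 in E16 ovary (log2 difference 1.27, limma adjusted p = 0.0406). Its dimmer probe set gave 2.42 (limma adjusted p = 0.0151). At E13 and at E14, 0 of the 40 passed. With age, 0 of the 40 rose in testis and 2 fell (0.945% of all probe sets passed), Crabp1, the other cellular carrier of retinoic acid (-1.17, limma adjusted p = 0.0174), and Hoxa5, a retinoic acid target (-2.05, limma adjusted p = 0.00719). In ovary Crabp1 (-0.98, limma adjusted p = 0.0464), Hoxa5 (-1.68, limma adjusted p = 0.0243) and Nr2f2 (-1.34, limma adjusted p = 0.0464) fell between E13 and E16, and 0 rose, where 0.889% of all probe sets passed. The dimmer Nr2f2 probe set did not pass there (limma adjusted p = 0.0546).

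The same 2 genes, Crabp1 and Hoxa5, were lower in cultured than in fresh E13 testis (-1.06 and -1.52, limma adjusted p = 0.0256 and 0.0298), and 0 of the 40 were higher, where 1.39% of all probe sets passed. Crabp1 read 154.5 and 135.2 in cultured testis and 286.4 and 355.8 in fresh E13 testis, while Crabp2, which did not pass, had higher values in cultured testis. The difference between the 2 carriers was not tested. Cyp26b1, the degrading enzyme, read 43.0, 49.3 and 65.8 in replicate 1 of E13, E14 and E16 testis and 7.4, 11.5 and 6.3 in replicate 2, against 4.8 to 23.9 in ovary. In cultured testis it read 54.2 and 31.1. Its fresh testis replicates disagreed at every age, and no difference passed. The lower fresh value was each time in replicate 2, which lies in the earliest chip period. Rdh10, the retinol dehydrogenase upstream of the Aldh1a enzymes, differed by -0.07 between the sexes at E16 on its brighter probe set (limma adjusted p = 0.946). Aldh1a3, Stra8 and Cyp26c1 are not analysed here.

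**Figure D5:**
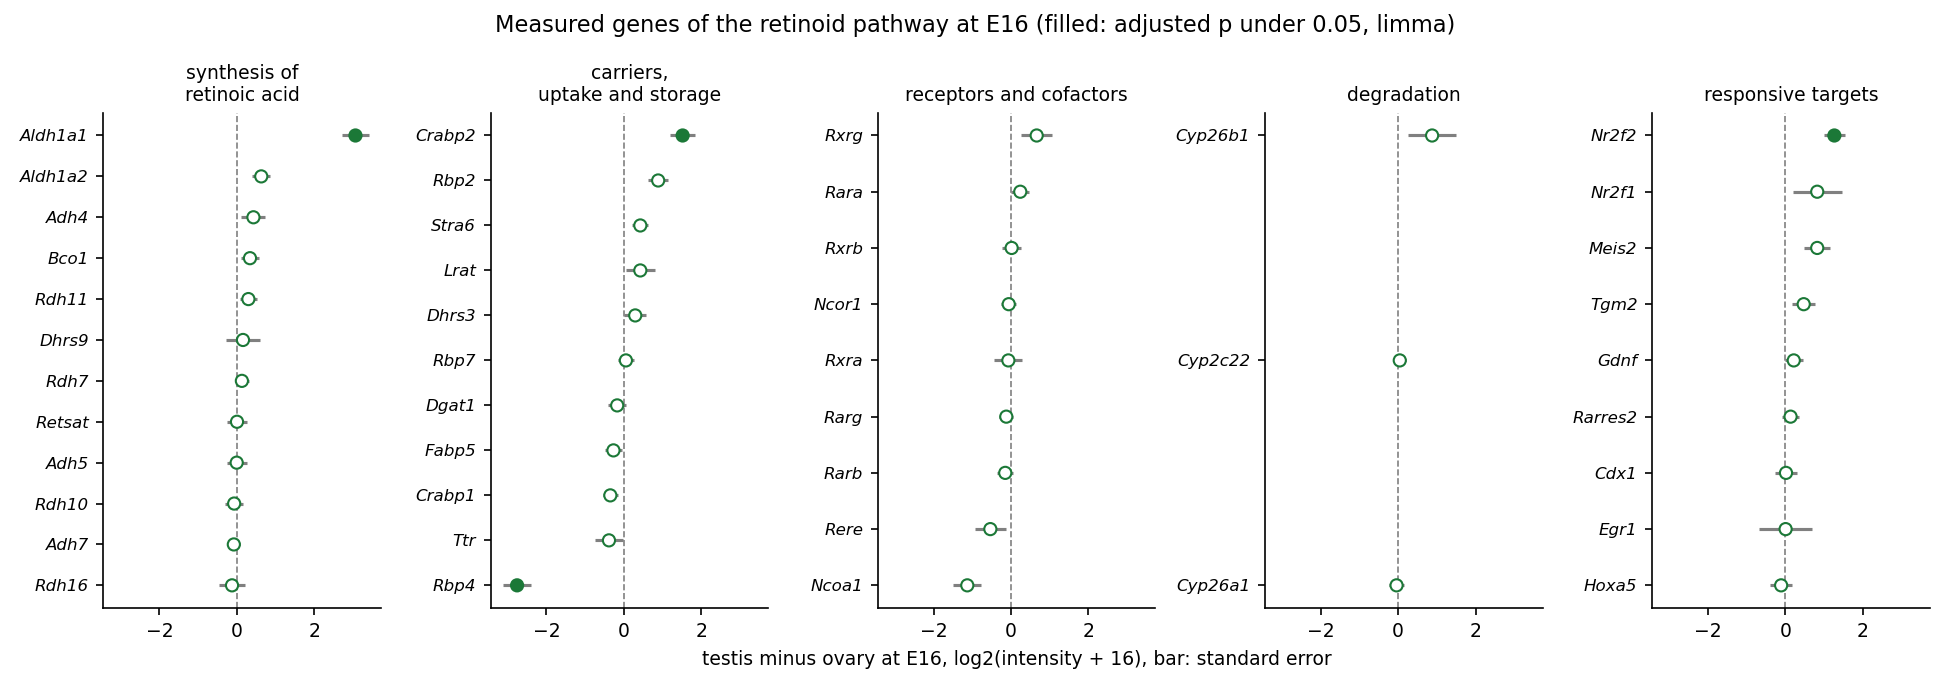
Testis minus ovary difference at E16 for each measured gene of the retinoid pathway, by role, on the log2(intensity + 16) scale with standard errors, and filled points for an adjusted p under 0.05 (limma). The 4 filled points are Aldh1a1, Crabp2 and Nr2f2, higher in testis, and Rbp4, lower.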

How the data were processed

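Values were intensities on a linear scale, 1 per probe set and array, as deposited by the authors. RNA was Trizol-extracted from pooled gonads and biotin-labelled by standard Affymetrix procedures, per the labels' protocols. The probe summary software is not given in the sources used here. Trimming showed scaling: the mean after trimming 2% at each end was 125.0 in every array. Names came from the platform annotation. Of 15923 probe sets, 57 controls were left out. The other 15866 were analysed as log2(intensity + 16), which understates changes of dim genes. In R 4.3.3, limma 3.58.1 fitted 1 model with a term per group to the 14 arrays (7 residual and 4.16 prior degrees of freedom). Each of 14 comparisons was adjusted by Benjamini-Hochberg over all probe sets, at a threshold of 0.05. A gene's probe set was the one brightest on average. Alternatives were offsets of 1 and 64, quantile normalization, leaving out dim probe sets, chip period or chip batch as a block, a replicate block, and leaving out arrays. The code was tested on simulated data. Precision is limited by 2 arrays a group. Members, gene lists and the rules for naming genes were chosen with earlier results of these data known.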

Additional observations from a re-analysis of the deposited data

Results flagged for a closer look

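Rbp4 read lower in testis than in ovary at E16. Its values in both sexes at E13, like those in E16 testis, cannot be told from background. On the log2(intensity + 16) scale, testis minus ovary was -2.76 at E16 and 0.36 at E13, where it did not pass (limma adjusted p = 0.8). The change between the ages was -3.12 (limma adjusted p = 0.0496). The call was lost with 11 of the 14 arrays left out in turn and under 4 of 9 alternatives (offsets of 1 and 64, the replicate block, and without the 4 arrays at odds in Xist). It rests on the 2 E16 ovary arrays, which read 70.1 and 188.0, against 1.4 to 18.9 in the other 12 arrays.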

How the results depend on the processing

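Of 56 gene and comparison pairs, 10 passed. None of the 10 changed sign under the 9 alternatives or with any of the 14 arrays left out. They kept their call in 72 of 90 alternative values and in 102 of 140 values with 1 array left out. With an offset of 1 the calls lost were Aldh1a1 at E14 (2.50), Crabp2 at E16 (1.61) and the change of the Rbp4 sex difference (-6.13), and with an offset of 64 the same 3 were lost (1.76, 1.29 and -1.55). The offset sets the size of the Rbp4 values, with testis minus ovary at E16 at -4.71 and -1.44 and ovary E16 minus E13 at 5.28 and 1.48 under offsets of 1 and 64. Without the 4 arrays at odds in Xist the calls lost were Aldh1a1 at E14 (2.50), at E16 (2.88), between E16 and E13 testis (2.89) and in culture (3.99), the Aldh1a2 mean (0.90), Crabp2 at E16 (1.42), the Rbp4 change (-2.38) and ovary E16 minus E13 for Rbp4 (2.25), and this leaves fewer arrays in 4 groups. Without the 2 arrays of high actin ratio, Crabp2 at E16 (1.62) and the Aldh1a2 mean (0.68) were lost, and with chip period as a block the Aldh1a2 mean was lost (0.53). The cause was not tested. Leaving out 1 array gave 1.94 to 2.58 for Aldh1a1 at E14, 2.51 to 3.08 for Aldh1a1 between E16 and E13 testis, 0.62 to 0.83 for the Aldh1a2 mean, 1.16 to 1.88 for Crabp2 at E16, -3.74 to -2.50 for the Rbp4 change and 2.25 to 3.50 for Rbp4 in ovary.

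Replicate numbers follow chip period in part: replicate 2 lies in the earliest period in every group but E13 ovary. Another period held only testis arrays, replicate 1 of cultured E13, E14 and E16 testis. The remaining period held both E13 ovary arrays and replicate 1 of E14 ovary, E16 ovary and fresh E13 testis. Sex, age and culture are therefore partly confounded with chip period. In 21 pairs of groups, same-numbered arrays had correlations of their deviations between -0.0534 and 0.53, of which 15 were over 0.1 and 0 under -0.1. Pairing was to be taken only with all 21 over 0.1, so the block stayed an alternative. With a replicate block the change of the Rbp4 sex difference was -3.12 and no longer passed (limma adjusted p = 0.0579). The other 9 calls held, while Crabp2 passed in the mean over ages (0.77) and in ovary E16 minus E13 (-1.36). In all, 7 results that did not pass did so under some setting. Besides those in the text above, these were the means over ages of Crabp2 and of Rbp4, both with chip batch as a random block (0.85 and -0.96) and with dim probe sets left out (0.77 and -0.80), and for Rbp4 also without the 2 actin arrays (-1.01). Probe sets counted as dim had no group mean of at least 50. Rbp4 stayed in only through E16 ovary (129.1), the group where it is high, so its pass in that setting is no support.

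Signs of differences near 0 that did not pass turned under some settings, in 17 results. With quantile normalization this gave testis minus ovary at E13 at -0.0047 for Crabp2, testis minus ovary at E14 at -0.064 for Rbp4, ovary E16 minus E14 at 0.029 for Aldh1a1 and ovary E16 minus E14 at -0.015 for Aldh1a2. With chip period as a block this gave testis minus ovary at E13 at -0.14 for Crabp2, testis minus ovary at E14 at -0.39 and testis E14 minus E13 at -0.21 for Rbp4 and testis E16 minus E13 at -0.12 for Aldh1a2. With an offset of 1 this gave testis minus ovary at E14 at -0.22 for Rbp4. With chip batch as a random block this gave testis minus ovary at E14 at -0.24 for Rbp4. Without the 4 arrays this gave testis minus ovary at E14 at -0.42, testis E14 minus E13 at -0.12 and cultured E13 minus fresh E16 testis at -0.012 for Rbp4, the change of the sex difference at -0.041, testis E16 minus E13 at -0.24, ovary E16 minus E14 at -0.13 and cultured minus fresh E13 testis at -0.081 for Aldh1a2, testis E14 minus E13 at -0.14, testis E16 minus E14 at -0.090 and testis E16 minus E13 at -0.23 for Crabp2 and ovary E16 minus E14 at 0.17 for Aldh1a1. Without the 2 actin arrays this gave the change of the sex difference at -0.026 and ovary E16 minus E13 at 0.089 for Aldh1a2 and cultured minus fresh E13 testis at 0.014 for Rbp4. With 1 array left out, Crabp2 ranged over -0.36 to 0.39 for testis minus ovary at E13, -0.30 to 0.46 for testis E14 minus E13, -0.29 to 0.43 for testis E16 minus E14 and -0.23 to 0.52 for testis E16 minus E13. For Rbp4 it was -0.42 to 0.42 for testis minus ovary at E14, -0.24 to 0.59 for testis E14 minus E13, -0.26 to 0.014 for cultured minus fresh E13 testis, -0.71 to 0.12 for cultured E13 minus fresh E14 testis and -0.012 to 0.26 for cultured E13 minus fresh E16 testis. For Aldh1a2 it was -0.18 to 0.42 for the change of the sex difference, -0.24 to 0.36 for testis E16 minus E13, -0.29 to 0.16 for ovary E14 minus E13, -0.21 to 0.23 for ovary E16 minus E14, -0.20 to 0.089 for ovary E16 minus E13 and -0.079 to 0.52 for cultured minus fresh E13 testis. For Aldh1a1 it was -0.032 to 0.60 for ovary E14 minus E13 and -0.33 to 0.30 for ovary E16 minus E14.

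Counts of all probe sets that passed moved with the setting. At E16 testis minus ovary gave 276 probe sets, and 14 without the 4 arrays to 594 with chip batch as a random block. The range was 0 to 93 around 22 at E14, 48 to 673 around 366 for the mean over ages, 0 to 46 around 23 for the change between ages, 6 to 252 around 150 for E16 minus E13 testis, 0 to 276 around 141 in ovary and 5 to 378 around 221 in culture. Quantile normalization moved the share of higher calls in the mean over ages to 44.9%, against 55.5%. Without detection calls, signals near background have no order.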
